A study of Mus musculus with 2 samples.

Results

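The 7 genes described here belong to the cholesterol synthesis pathway: Hmgcs1, Idi1, Fdft1, Sqle and Lss code for enzymes of the pathway, and Insig1 and Srebf2 code for proteins that control it. They were taken by symbol, all 7 were present, and they are 7 of the 32285 genes counted. The data are single-cell RNA counts from gastruloids, small balls of mouse embryonic stem cells that begin to lay down germ layers and a body axis without an embryo. Each ball was started from about 300 R1 stem cells, which were either wild type or had both Sp5 and Sp8 knocked out, in serum-free N2B27 medium. Aggregates of both genotypes received 3 µM of the GSK3 inhibitor CHIR, which switches on Wnt signalling, at day 2 and were pooled and collected 12 hours later, at day 2.5. No group without CHIR was analysed here, so CHIR is shared by all cells. Each genotype is 1 pooled library, so no difference has a replicate check and no test between conditions was made.

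Cholesterol is made from acetyl-CoA by a chain of enzymes in and around the endoplasmic reticulum. The transcription factor SREBP2, the product of Srebf2, is held in that membrane by SCAP and INSIG proteins when sterols are plentiful. When sterols are low it is cut, enters the nucleus and raises transcription of the pathway's enzymes and of Insig1, whose product retains SREBP2 again. Cholesterol is also attached to Hedgehog proteins and is needed for the response to them, which in vertebrates runs through the primary cilium.

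In order of action, Hmgcs1 makes HMG-CoA, Idi1 interconverts the isoprenoid units that are joined into longer chains, Fdft1 makes squalene, Sqle oxidises it and Lss closes it into the ring of lanosterol. All 7 are protein-coding genes in GENCODE M21 on GRCm38. Hmgcs1 (ENSMUSG00000093930) lies on chromosome 13 from 119690379 to 119708260, and Idi1 (ENSMUSG00000058258) on the same chromosome from 8885501 to 8892451. Fdft1 (ENSMUSG00000021273) is on chromosome 14 from 63145150 to 63179578. Sqle (ENSMUSG00000022351) is on chromosome 15 from 59315077 to 59331192, and Srebf2 (ENSMUSG00000022463) on the same chromosome from 82147181 to 82205379. Lss (ENSMUSG00000033105) is on chromosome 10 from 76531588 to 76557138 and Insig1 (ENSMUSG00000045294) on chromosome 5 from 28071363 to 28078662. Fdft1 is on the minus strand and the others are on the plus strand. The annotation places Ctsb antisense over Fdft1, with 4935 and 4985 UMIs in the libraries labelled wild type and double mutant. Whether counting used the strand is not given in the sources used here, so reads of Fdft1 and Ctsb cannot be told apart where they overlap. Gm48342, antisense over Hmgcs1, had 109 and 63 UMIs, and Gm48574, annotated antisense over Idi1, was not analysed here. Idi2, the paralog of Idi1, had at most 32 UMIs in a library.

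The RefSeq promoter table on GRCm38.p6 held 5 of the 7 genes, each from 250 bases before to 50 bases after the annotated start. The windows were searched on both strands for TCACNCCA, the core letters of a sterol regulatory element, for CCAAT, bound by NF-Y, and for GGGCGG, the GC box bound by Sp factors. The 3 shown here are Hmgcs1 and Srebf2, which hold the sterol element core, and Idi1, which lacks it and is the gene of the 7 that differed most between the libraries. Capitals mark every match, a match on the other strand standing as ATTGG or CCGCCC, and no match overlaps another in these sequences. All 3 windows are on the plus strand: chr13:119690101-119690400 for Hmgcs1, chr15:82147019-82147318 for Srebf2 and chr13:8885356-8885655 for Idi1.
Hmgcs1: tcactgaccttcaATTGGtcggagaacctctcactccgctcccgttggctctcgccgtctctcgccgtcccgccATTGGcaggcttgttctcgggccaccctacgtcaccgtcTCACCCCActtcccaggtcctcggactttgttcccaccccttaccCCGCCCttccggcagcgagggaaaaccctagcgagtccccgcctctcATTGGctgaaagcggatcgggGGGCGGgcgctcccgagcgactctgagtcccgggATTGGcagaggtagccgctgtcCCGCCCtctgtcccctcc
Srebf2: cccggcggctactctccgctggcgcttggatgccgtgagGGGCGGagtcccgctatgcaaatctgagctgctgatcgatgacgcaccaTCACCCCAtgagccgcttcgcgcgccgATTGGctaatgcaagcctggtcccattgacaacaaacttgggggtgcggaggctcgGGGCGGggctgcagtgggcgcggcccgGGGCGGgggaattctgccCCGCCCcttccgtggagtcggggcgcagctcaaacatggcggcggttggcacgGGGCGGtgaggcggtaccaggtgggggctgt
Idi1: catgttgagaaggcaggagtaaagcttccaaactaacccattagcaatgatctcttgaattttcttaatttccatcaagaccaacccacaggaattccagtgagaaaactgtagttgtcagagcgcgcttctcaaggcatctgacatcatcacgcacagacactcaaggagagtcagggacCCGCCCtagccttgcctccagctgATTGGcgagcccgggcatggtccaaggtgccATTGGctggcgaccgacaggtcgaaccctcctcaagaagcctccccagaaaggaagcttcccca

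In Hmgcs1 the core reads TCACCCCA and begins at position -137 from the start, and in Srebf2 the same letters begin at -162. The core was present in 2 of the 5 member windows and in 4.36% of the 32851 windows of the table. CCAAT was present in 5 of 5 member windows and in 37.4% of all windows. The GC box was present in 5 of 5, against 35.7% of all windows. Among 13 other sterol enzymes in the table, 1 (Msmo1) held the core, 11 held CCAAT and 12 held the GC box. Hmgcs1 had 4 CCAAT and 3 GC box matches, Srebf2 had 1 and 5, Idi1 had 2 and 1, Insig1 had 1 and 3, and Lss had 1 and 2. These matches describe letters in a window, and no binding was measured.

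The libraries held like totals of UMIs but differed in depth per cell. Of all barcodes, 8707 under the wild type label and 10587 under the double mutant label passed the limits of at least 2500 UMIs, at least 1000 genes and at most 10% mitochondrial UMIs. A UMI is a random tag on each captured molecule, so that amplified copies are not counted again. The cells held 97157331 and 97644169 UMIs, with medians of 10571 and 8637 UMIs per cell, and 27 cell barcodes occurred in both libraries. The targeted genes went against the labels: per library, Sp5 had 109 CPM (the UMIs of a gene scaled to 1000000 in all) under the wild type label and 479 CPM under the double mutant label, and Sp8 had 20.8 and 40.1 CPM. A mutation that leaves the 3′ end of a transcript in place would not be seen by these 3′ libraries, and where the deletion lies is not given in the sources used here. Why both genes were higher under the double mutant label was not tested, nor was the assignment of the labels. For this reason the libraries are named by their labels throughout, and a direction between them is a direction between labels. In barcodes of 10 to 100 UMIs, taken here as free RNA, the 7 genes summed to 722 and 607 CPM, or 0.952 and 0.914 times their level in cells.

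The cells were divided into 5 groups without using the 7 genes. Naive-like cells came from a cluster led by Dppa5a, Dppa3 and Zfp42, markers of the naive state of embryonic stem cells, with 9 of 12 naive markers at least 1.5-fold above the other cells. Markers of the primed epiblast were not lower in this cluster. They summed to 1263 and 1350 CPM under the wild type and double mutant labels, against 984 and 1059 CPM over all cells. T cells, a name that refers to the gene and not to lymphocytes, had at least 2 UMIs of T (brachyury, a primitive streak gene), and Eomes cells had at least 2 UMIs of Eomes, a gene of the early streak, and none of T. Irx3 cells had at least 1 UMI of Irx3, a gene of the neural and caudal epiblast, with no T and at most 1 Eomes UMI. In the library labelled wild type there were 420 naive-like, 819 T, 1082 Eomes, 977 Irx3 and 5409 other cells. In the library labelled double mutant there were 453, 1100, 2407, 411 and 6216.

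Among these groups, the 7 genes together were lowest in naive-like cells and highest in Irx3 cells, in both libraries. In the library labelled wild type their summed level was 616 CPM (95% interval 594 to 638) in naive-like cells, 712 (697 to 728) in T cells, 728 (714 to 743) in Eomes cells, 758 (751 to 766) in other cells and 899.7 (882 to 918) in Irx3 cells. In the library labelled double mutant the order was the same, with 584 (561 to 607), 639 (625 to 653), 663 (652 to 673), 667 (660 to 674) and 809.9 (781 to 839.5) CPM. The intervals of T and Eomes cells overlapped in both libraries, with an Eomes over T log2 ratio of 0.03 (-0.01 to 0.07) and 0.05 (0.01 to 0.09), and those of Eomes and other cells overlapped in the library labelled double mutant. All intervals are exact and cover counting error only, not variation between cells or cultures. Per cell, the medians in the same order of groups were 547, 642, 654, 647 and 746 CPM in the first library. In the second they were 527, 593, 595, 566 and 633 CPM, so other cells stood below T cells there. The quartiles of Irx3 cells in the second, 363 and 1030 CPM, lay outside those of T cells, 381 and 813 CPM.

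**Figure D1:**
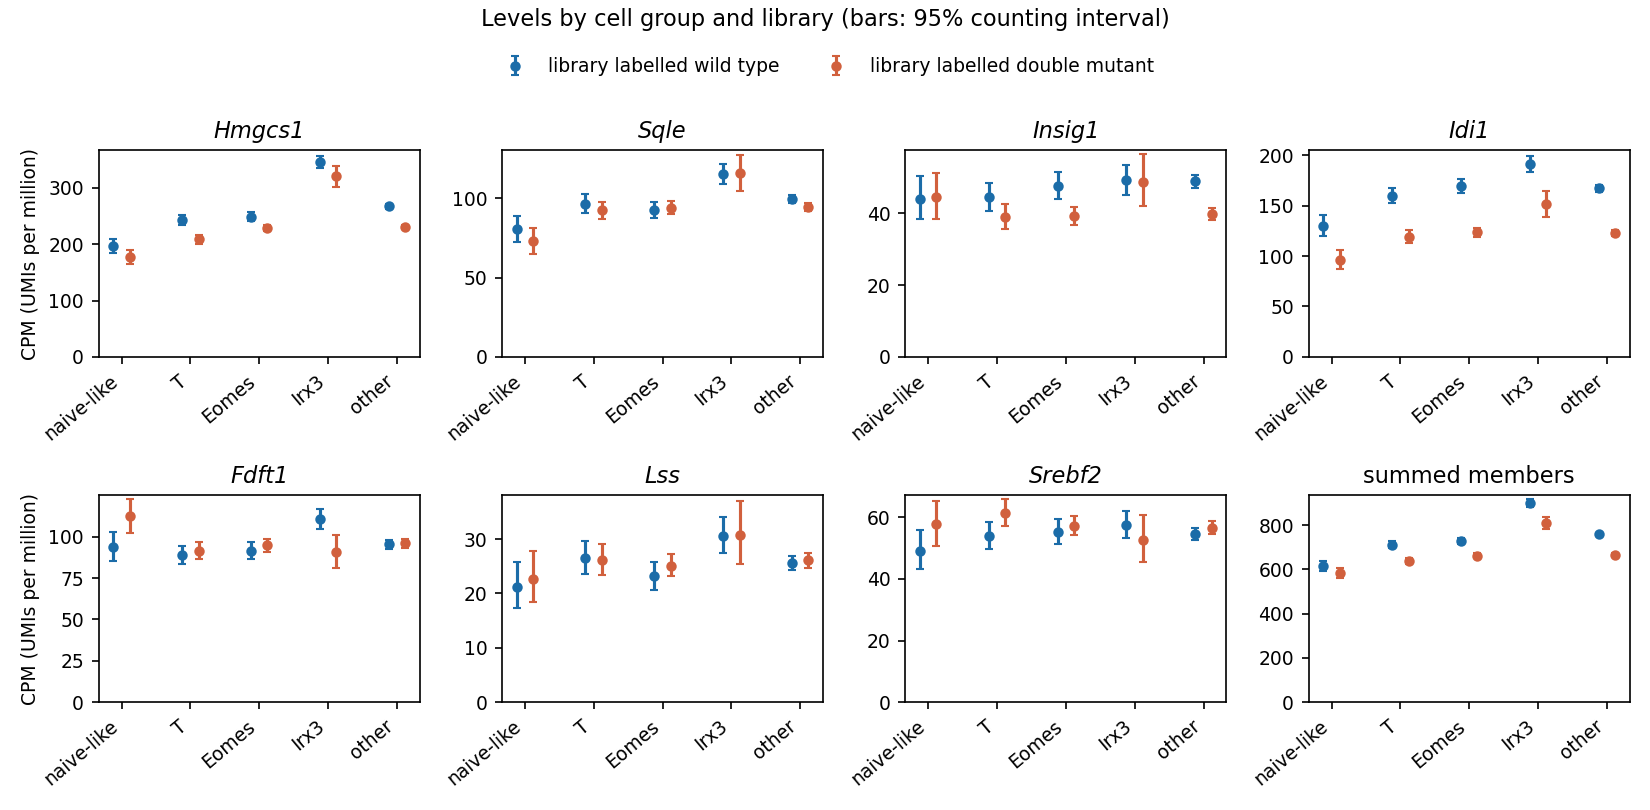
Level of each gene and of their sum in CPM (vertical axes, from 0) by cell group (horizontal axes) in the library labelled wild type (blue) and the library labelled double mutant (orange), with 95% counting intervals as bars. Irx3 cells are the highest group for Hmgcs1, Idi1, Sqle and the sum in both libraries, and naive-like cells are the lowest for these, at 616 and 584 CPM for the sum.

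Hmgcs1, the earliest of the described enzymes to act, differed most among the groups. It was 197, 243, 249 and 346 CPM in naive-like, T, Eomes and Irx3 cells of the library labelled wild type, and 177, 209, 229 and 320 CPM in those of the library labelled double mutant. Its log2 ratio of Irx3 over T cells was 0.51 (0.44 to 0.58) and 0.62 (0.52 to 0.72). The naive-like and Irx3 intervals did not overlap in either library. Idi1 followed the same order, with 130.0, 160, 169.6 and 191 CPM in the first library and 96.5, 119, 123 and 151 CPM in the second. T and Eomes cells did not separate in Idi1 in either library, their intervals overlapping. Sqle, which carries out the first oxygenation of the sterol branch, was 80.5, 96.5, 92.4 and 115 CPM, and 72.8, 92.4, 94.2 and 116 CPM. Here too Irx3 cells stood above T cells, by 0.26 (0.14 to 0.37) and 0.32 (0.16 to 0.49) on the log2 scale.

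The other genes showed less. Lss was 21.2, 26.5, 23.1 and 30.6 CPM in the library labelled wild type and 22.7, 26.2, 25.1 and 30.8 CPM in the library labelled double mutant. Naive-like cells were below Irx3 cells in both, by a log2 ratio of -0.53 (-0.86 to -0.21) and -0.44 (-0.85 to -0.04), while the intervals of the Irx3 over T ratio held 0. Insig1, the sterol-dependent brake on SREBP2, was 44.1, 44.4, 47.6 and 49.2 CPM, and 44.5, 38.9, 39.2 and 48.8 CPM, and its naive-like over Irx3 interval held 0 in both libraries. Srebf2 was 49.1, 54.0, 55.3 and 57.5 CPM, and 57.7, 61.5, 57.2 and 52.6 CPM. The order of its groups was therefore not the same in the libraries, and Irx3 over T was 0.09 (-0.07 to 0.25) and -0.22 (-0.46 to 0.01). Fdft1 was 93.8, 88.7, 91.4 and 110.5 CPM in the library labelled wild type, with Irx3 cells highest, and 112, 91.5, 94.8 and 90.6 CPM in the library labelled double mutant, with naive-like cells highest.

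Counted by a fold of 0.25 on the log2 scale (1.19-fold) passed the same way in both libraries, 3 of the 7 genes were higher in Irx3 than in T cells (Hmgcs1, Idi1 and Sqle) and none was lower. Of 3004 genes with a mean of at least 50 CPM, 3.13% were higher and 3.53% lower by this rule. Under the wild type label Idi1 and Sqle passed it narrowly, at 0.26 each, and their intervals hold the limit. The median log2 ratio of the 7 genes was 0.26 and 0.32, against -0.01 and -0.01 over all these genes. Naive-like cells were lower than T cells in 2 of 7 (Idi1 and Sqle) and higher in 0, beside 12.0% and 5.39% of all genes. Between naive-like and Irx3 cells, 4 of 7 were lower in the former (Hmgcs1, Idi1, Sqle and Lss), and 0 were higher, beside 14.4% and 8.49% of all genes, and the 7 genes' median was -0.52 and -0.44 against -0.03 and -0.04. Eomes against T cells gave 0 of 7 in either direction, beside 0.166% of genes higher and 0.3% lower. Naive-like cells were lower than Eomes cells in 2 of 7, Hmgcs1 and Idi1, and higher in 0, beside 11.6% and 5.46%. Eomes cells were lower than Irx3 cells in 3 of 7 (Hmgcs1, Sqle and Lss), and higher in 0, beside 2.3% and 2.9%. Insig1 and Lss have a mean under 50 CPM and would not have entered the gene sets behind these shares.

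Other enzymes of the pathway were described in the same way. Of 10 enzymes outside the 7 with at least 50 CPM, 3 were higher in Irx3 than in T cells in both libraries, Cyp51 and Msmo1 among them, and 0 were lower. The shares of all genes were 3.13% higher and 3.53% lower. Msmo1, a sterol C4-methyl oxidase, had a log2 ratio of 0.62 and 0.63. Cyp51, the lanosterol demethylase, had 0.34 and 0.40. Naive-like cells were lower than T cells in 6 of the 10 (Acat2, Pmvk, Mvd, Cyp51, Msmo1 and Nsdhl) and higher in 0, beside 12.0% and 5.39% of all genes. The medians over the 10 were -0.47 and -0.36, against -0.04 and -0.06 over all genes. Lbr, a sterol reductase that is also an inner nuclear membrane protein, was the exception, at 0.30 and 0.26 in naive-like over Irx3 cells.

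The groups also differed in cell cycle and depth. Cells scored as S phase made up 33.7% and 26.3% of T cells and 40.4% and 39.2% of Irx3 cells. The 7 genes summed were lower in G2M than in S phase cells, by a log2 ratio of -0.16 (-0.19 to -0.14) and -0.13 (-0.15 to -0.11). Hmgcs1 gave -0.22 and -0.17, Idi1 -0.22 and -0.17, and Srebf2 0.04 and -0.00. Within S phase cells the summed Irx3 over T ratio was 0.36 (0.28 to 0.43) and 0.19 (0.08 to 0.30), and within G2M cells 0.30 (0.25 to 0.36) and 0.40 (0.32 to 0.47). T cells had a median of 12594 and 10474 UMIs per cell and Irx3 cells 10701 and 8236, and the limits on marker UMIs select by depth. With groups drawn after thinning every cell to 2500 UMIs, the ratio was 0.36 and 0.29.

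Among single cells the 7 genes varied together, but weakly when taken pair by pair. The Pearson correlation across cells was positive for every pair. It was highest for Hmgcs1 with Sqle under the wild type label, at 0.31, and with Fdft1 under the double mutant label, at 0.24. Idi1 with Srebf2 was lowest, at 0.027 and 0.018. For each gene in turn, the cells of a library were ranked by the share of their UMIs in the other 6, and the gene was compared between the top and the bottom 25% (2176 and 2646 cells each). Hmgcs1 was 151 CPM in the bottom and 452 CPM in the top cells of the library labelled wild type, and 145 and 355 CPM in the library labelled double mutant. These are log2 ratios of 1.58 (1.52 to 1.63) and 1.30 (1.24 to 1.36). Hmgcs1 has the most UMIs of the 7, so it weighs most in the rankings for the other genes. Lss gave 1.43 and 1.16, Fdft1 1.27 and 1.10, and Sqle 1.17 and 0.99. The 4 enzymes were followed by Idi1, at 0.96 and 0.76, and by Insig1, at 0.85 and 0.62. Srebf2 differed least, with 45.8 and 65.7 CPM and with 48.9 and 69.6 CPM, or 0.52 (0.41 to 0.63) and 0.51 (0.40 to 0.62). Within single cell groups Srebf2 was not always higher beyond counting error: it gave 0.09 (-0.24 to 0.42) in T cells under the wild type label and 0.07 (-0.52 to 0.66) in Irx3 cells under the double mutant label. Idi1 and Insig1 also depended on the group. Idi1 gave 0.42 in T cells and 1.26 in Irx3 cells under the double mutant label, and Insig1 gave 0.50 in T cells under the wild type label and, under the double mutant label, 0.38 in Eomes and 1.17 in Irx3 cells.

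**Figure D2:**
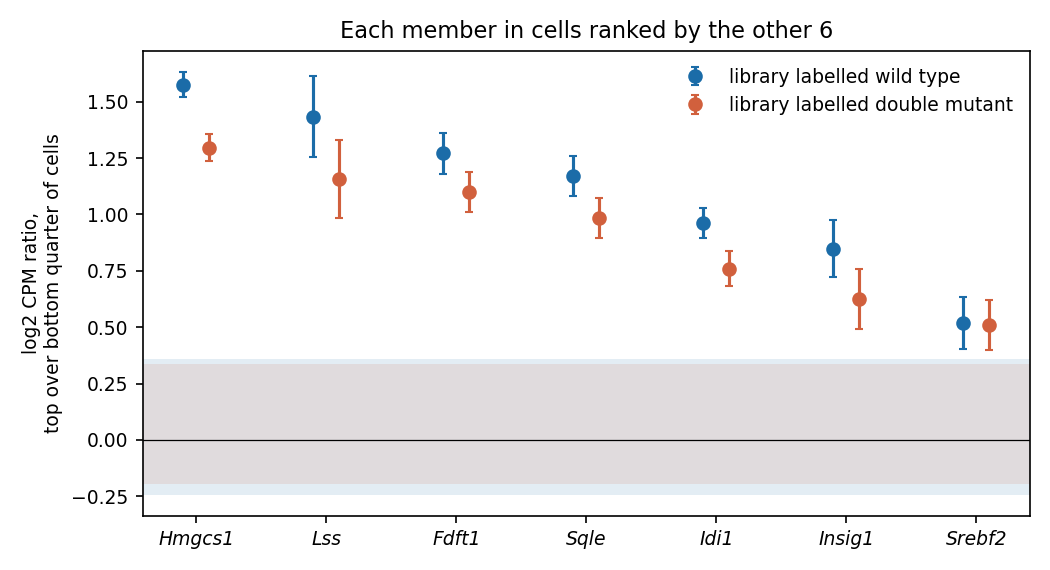
Log2 CPM ratio of each gene (vertical axis) between the top and the bottom 25% of cells ranked by the other 6 genes, for the library labelled wild type (blue) and the library labelled double mutant (orange), with 95% counting intervals as bars. The shaded bands span the middle 98% of 2999 other genes in cells ranked by all 7, from -0.24 to 0.36 and from -0.19 to 0.34, and over all cells the 7 genes lie above them, with Srebf2 nearest at 0.52 and 0.51; within T cells under the wild type label Srebf2 gave 0.09, and within Irx3 cells under the double mutant label 0.07.

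Ranked by all 7 genes, cells in the top 25% also had more RNA of the remaining enzymes. All 16 further sterol enzymes with at least 10 CPM were past the fold of 0.25 in both libraries, beside 1.63% of 7600 other genes higher and 0.711% lower (1.33% and 0.333% of the 2999 with at least 50 CPM). Their medians were 1.06 and 0.88, against 0.03 and 0.03 over the 2999 genes with at least 50 CPM. Lbr and Ebp gave the least, with 0.36 and 0.30 for Lbr and 0.36 and 0.50 for Ebp, the sterol isomerase. The 12 genes whose pattern was most like that of the 7 (the highest lower value of both libraries, at 50 CPM or more) included Msmo1, Cyp51, Mvd, Nsdhl, Pmvk, Acat2, Fdps, Scd1, Fads2 and Sparc. Msmo1 led with 1.93 and 1.66, followed by Cyp51 with 1.55 and 1.31. Of the 12, 8 are sterol enzymes, Scd1 and Fads2 are fatty acid desaturases, and Sparc, an extracellular matrix protein, is the only one outside the lipid lists.

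**Figure D3:**
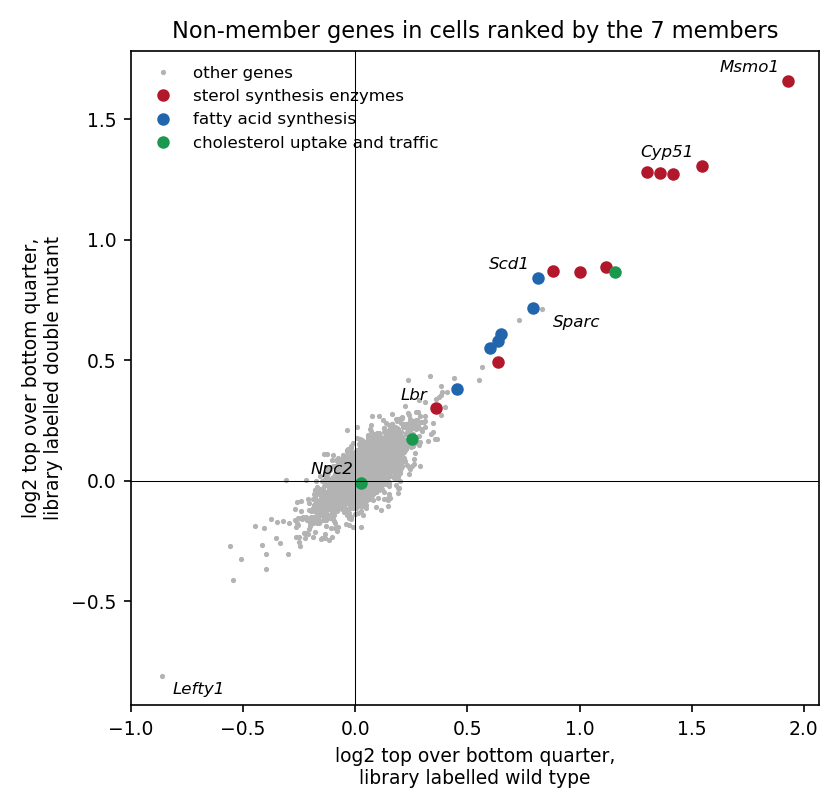
Log2 ratio of each of 2999 other genes with at least 50 CPM between the top and the bottom 25% of cells ranked by the 7 genes, in the library labelled wild type (horizontal axis) and the library labelled double mutant (vertical axis), coloured by list. Msmo1 lies highest at 1.93 and 1.66, the 6 fatty acid genes lie above 0.25 on both axes, and Lefty1 lies lowest at -0.86 and -0.81.

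Genes outside sterol synthesis moved with the 7 to unequal degrees. Of the 10 measured genes of cholesterol uptake and traffic, 4 passed the fold. Stard4, a cytosolic sterol carrier, gave 0.97 and 0.92, Scarb1 0.41 and 0.38, and Lrp2 0.39 and 0.29. Npc2, which carries cholesterol out of the lysosome, gave 0.03 and -0.01. Fatty acid synthesis genes passed the fold in 10 of 10, with medians of 0.55 and 0.52. Scd1, a stearoyl-CoA desaturase, gave 0.82 and 0.84, and Me1, malic enzyme, the least with 0.35 and 0.34. In contrast to the enzymes, the other genes of SREBP control passed it in 0 of 8, Scap among them with -0.12 and -0.06 and Srebf1 with 0.36 and 0.11. The count was 0 of 10 for other isoprenoid branches (medians 0.02 and -0.00) and 0 of 3 for efflux and esterification, where Apoe gave -0.39 and -0.18.

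At the other end, the 5 genes that were lowest in cells high for the 7 were Lefty1, Dppa5a, Sdc4, Dcxr and Wdr35. Lefty1, an inhibitor of Nodal signalling, gave -0.86 and -0.81, and Dppa5a, a naive marker, -0.54 and -0.41. The top and bottom cells differed in their makeup. S phase cells were 37.6% of the bottom and 48.9% of the top cells under the wild type label, and 34.8% and 45.4% under the double mutant label. Naive-like cells were 5.88% of the bottom and 2.62% of the top cells in the first library, and 4.76% and 3.29% in the second. Irx3 cells were 9.79% and 15.9%, and 3.67% and 5.25%. The 10 extraembryonic endoderm markers, Sparc among them, summed to 86.2 CPM in the bottom and 157 CPM in the top cells, and to 83.7 and 151 CPM. Afp, a defining gene of that lineage, had 3 and 2 UMIs in all cells, and the part of these shifts in the gene values was not tested. Median depth was 9922 and 10531 UMIs per cell in the bottom and top cells of the first library and 8272 and 8590 in the second. Within Irx3 cells alone the median ratio over the 7 genes was 1.42 and 1.41, within Eomes cells 1.05 and 0.87, and within S phase cells of the library labelled double mutant 0.84, beside 1.17 and 0.99 over all cells.

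Between the libraries, the 7 genes summed to 758 CPM (752 to 763) under the wild type label and 664 CPM (659 to 669) under the double mutant label. This is a log2 ratio of -0.19 (-0.21 to -0.18), or 0.876-fold. Idi1 was 167 CPM (165 to 170.0) and 123 CPM (120.4 to 125), a log2 ratio of -0.45 (-0.48 to -0.42). Hmgcs1 was 267 and 228 CPM, with -0.23 (-0.25 to -0.20). Insig1 was 48.0 and 40.1 CPM, with -0.26 (-0.32 to -0.20). These 3 were lower in the library labelled double mutant, and their level intervals did not overlap between the libraries. The other genes lay closer together, and only for Sqle among them did the level intervals not overlap. Sqle was 99.05 and 94.0 CPM (-0.08, -0.12 to -0.03), Fdft1 95.6 and 95.6 CPM (-0.00, -0.04 to 0.04), Lss 25.7 and 25.9 CPM (0.01, -0.07 to 0.09), and Srebf2 54.6 and 57.3 CPM (0.07, 0.01 to 0.12).

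By the fold of 0.25, 2 of the 7 genes (Idi1 and Insig1) were lower in the library labelled double mutant and 0 were higher, beside 4.67% and 3.13% of 7607 genes with a mean of at least 10 CPM. The log2 ratios of those genes had a median of -0.02 and an SD of 0.16. The ratio of Idi1 was below that of all but 0.605% of them, that of Insig1 of all but 4.13% and that of Hmgcs1 of all but 6.31%. The interval of Insig1 holds the limit of the fold, and with TMM scaling its ratio was -0.23, short of it. The other genes of chromosome 13, which holds Hmgcs1 and Idi1, had a median of -0.06 over 280 genes.

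**Figure D4:**
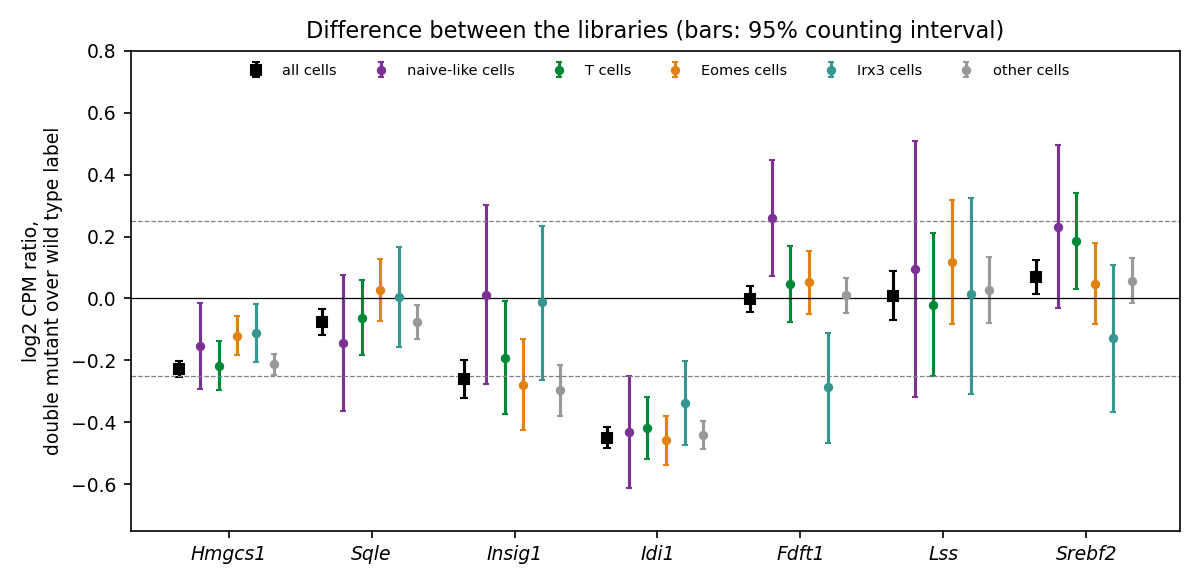
Log2 CPM ratio of the library labelled double mutant over the library labelled wild type (vertical axis) for each gene in all cells (black squares) and in each of 5 cell groups (coloured points), with 95% counting intervals as bars and dashed lines at 0.25 and -0.25. Idi1 lies below -0.25 in all 5 groups, and Fdft1 lies at 0.26 in naive-like and -0.29 in Irx3 cells.

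The difference in Idi1 was present in every cell group. Its log2 ratio was -0.43 (-0.61 to -0.25) in naive-like, -0.42 (-0.52 to -0.32) in T, -0.46 (-0.54 to -0.38) in Eomes, -0.34 (-0.47 to -0.20) in Irx3 and -0.44 (-0.49 to -0.40) in other cells. Hmgcs1 was lower in each group too, from -0.11 (-0.21 to -0.02) in Irx3 to -0.22 (-0.30 to -0.14) in T cells. Insig1 was lower in T cells, by -0.19 (-0.37 to -0.01), in Eomes cells, by -0.28 (-0.43 to -0.13), and in other cells, by -0.30 (-0.38 to -0.21), while its intervals in naive-like and Irx3 cells held 0. The share of Irx3 cells, the group with the highest levels, was 11.2% and 3.88% of cells. With each group given the same weight in both libraries, the summed ratio was -0.17 and that of Idi1 -0.43. The 7 stress markers summed to 190 CPM under the wild type label and 262 CPM under the double mutant label. Asns, asparagine synthetase, was 98.0 and 152 CPM of this and Chac1 15.0 and 25.5 CPM, while Ddit3 was 5.78 and 6.37 CPM, and their part in these ratios was not tested.

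The enzymes next to Idi1 in the pathway were not lower in the library labelled double mutant. Of the 16 further sterol enzymes, 0 passed the fold in either direction, beside 3.13% of all genes higher and 4.67% lower. Their median was 0.01, from -0.18 for Hsd17b7 to 0.21 for Fdps. Pmvk and Mvd, which act just before Idi1, gave 0.14 (0.10 to 0.19) and 0.12 (0.06 to 0.17). Fdps, which joins the isoprenoid units just after it, was 222 and 257 CPM, or 0.21 (0.18 to 0.23). Acat2, at the head of the pathway, gave 0.18 (0.14 to 0.22). Toward the end of the pathway Dhcr7 gave -0.16 (-0.23 to -0.09).

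**Figure D5:**
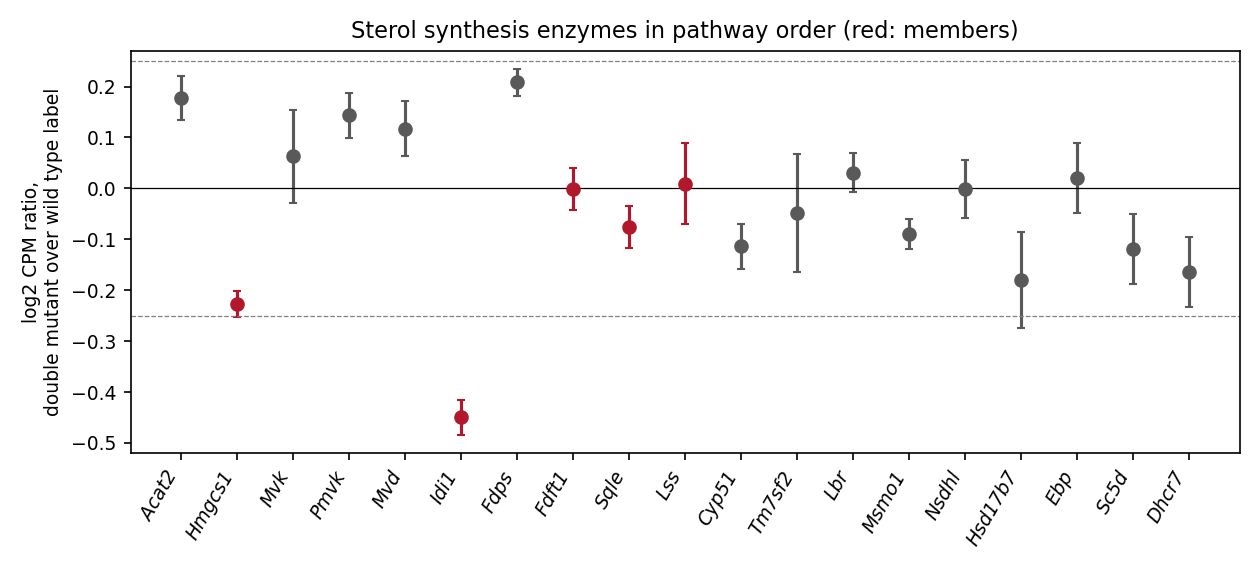
Log2 CPM ratio of the library labelled double mutant over the library labelled wild type (vertical axis) for sterol synthesis enzymes in the order of the pathway (horizontal axis), the described genes in red and the rest in grey, with 95% counting intervals as bars and dashed lines at 0.25 and -0.25. Idi1 at -0.45 is the only plotted enzyme under the lower line, between Mvd at 0.12 and Fdps at 0.21.

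Of the other lists, SREBP control passed the fold in 0 of 8 genes outside the 7 (median -0.08). Cholesterol uptake and traffic had 1 of 10 higher (Tmem97, a sterol-responsive membrane protein, at 0.25). Fatty acid synthesis had 1 of 10 higher (Fasn, fatty acid synthase, at 0.25, 0.23 to 0.28). Efflux and esterification had 1 of 3 lower (Apoe, a lipid carrier, at -0.27, -0.32 to -0.23), and other isoprenoid branches 1 of 10 higher (Rabggta, at 0.29, 0.17 to 0.40). Those 2 lists had medians of 0.04 and -0.06. Of all 7607 genes with a mean of at least 10 CPM, 3.13% were higher and 4.67% lower by this fold. The lists are too short for 1 gene to stand out from these shares.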

How the data were processed

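Libraries were made with a 10x Genomics single-cell 3′ kit, per the labels. The authors deposited raw UMI counts per gene and barcode, with 6794880 barcodes listed per library, so the cell filter named in the labels is not applied in them. The labels name Cell Ranger 8.0.1, and the submitters' processing notes name STARsolo, STAR 2.7.9a, Seurat 5.1.0 and the build mm10. Which tool wrote the counts is not given in the sources used here.

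Barcodes with at least 2500 UMIs, at least 1000 genes and at most 10% mitochondrial UMIs were kept, which removed 1 and 0 barcodes for genes and 64 and 26 for mitochondrial UMIs of 8772 and 10613. Doublets were kept in the values of the report and removed in an alternative. UMIs were summed per library or cell group and scaled to CPM. With 1 library per genotype there was no test. Exact Poisson and conditional 95% intervals cover counting error only, and ratios over all genes used a pseudocount of 0.5 UMI. A gene was counted past a log2 ratio of 0.25, at a mean of at least 10 CPM between libraries and 50 CPM between groups. Clusters were made with scanpy 1.11.5 (Leiden, resolution 0.5, 2000 variable genes, 30 components, 15 neighbours), leaving out Sp5, Sp8, lipid and cell cycle genes and those of mitochondria, ribosomal proteins and the Y chromosome. The naming rule for clusters needed 3 markers at 1.5-fold or more and 1 among the 10 leading genes. TMM factors came from edgeR 4.0.16. The ratios and intervals were tested on simulated Poisson counts. Those behind the intervals held no added variation between cells or cultures, so they cannot show whether the intervals cover it.

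Positions came from GENCODE M21 (32158 of 32285 gene IDs matched) and promoters from RefSeq on GRCm38.p6. The members, the 7 pathway lists, the markers and the tests were chosen with earlier results of these data known. Genes named were the 7, Sp5, Sp8, group markers, paralogs, up to 4 highest and 4 lowest genes per list and comparison, the 12 genes most like and the 5 least like the 7 among cells. Outside this rule, Lbr, Ebp, Npc2, Scap, Srebf1, Me1, Scarb1, Lrp2, Pmvk, Mvd, Dhcr7, Asns, Chac1, Ddit3, the antisense gene Ctsb, Afp and cluster leading genes were named after their values were seen where no part of it covers them. Some genes that the rule and the list counts cover are not reported here by name.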

Additional observations from a re-analysis of the deposited data

Results flagged for a closer look

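Fdft1, the squalene synthase gene, differed between the libraries in opposite directions in a pair of cell groups. In naive-like cells its log2 ratio of the library labelled double mutant over the library labelled wild type was 0.26 (95% counting interval 0.07 to 0.45), and in Irx3 cells it was -0.29 (-0.47 to -0.11). Read the other way, the log2 ratio of naive-like over Irx3 cells was -0.24 (-0.39 to -0.08) under the wild type label and 0.31 (0.11 to 0.52) under the double mutant label. Each group has 1 library per genotype, so the difference was not tested. Fdft1 was the only one of the 7 genes for which both groups' intervals lay on opposite sides of 0.

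Barcodes with 10 to 100 UMIs are not among the cells, and they carried the 7 genes at 722 CPM under the wild type label and 607 CPM under the double mutant label. The 101446 and 89160 such barcodes held 3958240 and 2541601 UMIs. Their values by gene differed in part from those in cells, but rest on far fewer UMIs, such as 195 and 129 for Insig1 and 102 and 47 for Lss. Idi1 was 172 and 107 CPM there and Hmgcs1 244 and 219.5 CPM, but Insig1, which was lower in the cells labelled double mutant, was 49.3 and 50.8 CPM. Sqle was 98.5 and 77.1 CPM, Lss 25.8 and 18.5 CPM, Fdft1 82.1 and 73.6 CPM and Srebf2 50.3 and 59.8 CPM. No counting intervals were made for these values, and the differences were not tested.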

How the results depend on the processing

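No paired analysis was possible because each genotype has 1 library. The summed ratio between the libraries was -0.16 with TMM scaling and -0.17 with equal cell group shares, and kept its value within counting error under 4 other settings. Irx3 over T cells was 0.40 and 0.61 (wild type and double mutant label) at minimums of 3, 3 and 2 marker UMIs. In the library labelled double mutant it was 0.42 at a mitochondrial limit of 5% and 0.19 in S phase cells. Naive-like over T was -0.12 at resolution 1.0 (wild type label), -0.20 with groups from thinned cells (double mutant label), -0.30 and -0.23 in S phase cells, and -0.084 and -0.38 with naive cells taken by markers per cell (54 and 38 cells). With that last choice Sqle (0.075) and Lss (0.11) were higher in naive-like than T cells of the library labelled wild type; the cause was not tested. Eomes over T in the library labelled double mutant was -0.042 with thinned groups and -0.049 in S phase. The median ratio between the top and bottom 25% of cells (1.17 and 0.99) was 1.62 and 1.37 with 10%, 1.42 and 1.41 in Irx3 cells, 1.05 and 0.87 in Eomes cells. In the library labelled double mutant it was 0.76 in T cells, 1.10 in cells with at least 10000 UMIs and 0.84 in S phase. The efflux list's median was -0.13 with no CPM minimum, against 0.04. For ratios of single genes between cell groups, 424 values stayed within counting error, 36 moved and 2 reversed. The ratios of single genes between top and bottom cells were less stable, as 72 stayed and 54 moved. Of the values of their median, 9 stayed and 9 moved. For ratios between cell groups, the settings by cell cycle phase were chosen after seeing the data. For ratios between top and bottom cells, those by Irx3 and Eomes cells alone were chosen so too. The same holds there for a setting without naive-like and extraembryonic-endoderm-like cells. Depth limits Lss and Insig1, whose sums in naive-like cells were between 96 and 218 UMIs.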

Other observations

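A pair of small clusters lay furthest from the rest in the summed level of the 7 genes, leaving aside cluster 6, which has 6 cells and 1 cell in the libraries. Cluster 9 held 16 cells in each library, was led by genes such as Ttr, Dab2, Sparc and Cubn, and had 9 of 10 extraembryonic endoderm markers at 1.5-fold or more. Its extraembryonic-endoderm-like cells had 1549 CPM (1377 to 1736) of the 7 genes under the wild type label and 1174 CPM (1013 to 1353) under the double mutant label. Insig1 was 399 and 209 CPM there, beside 48.0 and 40.1 CPM over all cells. Idi1 was the exception, at 131 and 117 CPM, against 167 and 123 CPM over all cells.

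Cluster 0 was led by Ddit3 and Pmaip1, genes of the stress response, and held 39 and 84 cells. Its cells had 354 CPM (292 to 426) and 391 CPM (344 to 444) of the 7 genes. Idi1 was 47.1 and 43.5 CPM and Hmgcs1 119 and 101 CPM. Cluster 8, neural-like and led by Onecut2 and Sox1, had 634 and 561 CPM, below cluster 3, led by Irx3 and Gbx2, with 830 and 745 CPM. Cluster 7, left unnamed, held 329 and 357 cells with medians of 3676 and 3226 UMIs. It had 543 CPM (504 to 585) and 543 CPM (503 to 585) of the 7 genes. Its interval lay below that of naive-like cells under the wild type label only. Hmgcs1, Sqle, Insig1, Lss and Srebf2 were below their levels over all cells in both libraries, and Fdft1 was above. Srebf2 was 16.9 and 25.4 CPM. The part of this cluster in the ratios between top and bottom cells was not tested. The cells of clusters 0 and 9 are few, each library is 1 pool, and the values are given as a description.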
